A study of Mus musculus with 384 samples.

Results

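A set of 9 genes of the heat shock and chaperone system was followed across single sorted cells of mouse back skin, all labelled as hair follicle stem cells. The 9 are Hspa1a, Hspa1b, Dnajb1, Hsp90aa1, Hsp90ab1, Hspa8, Hspa5, Hspb1 and Hsph1. They were found in the deposited expression table as the rows whose identifier ends in the gene symbol, 9 of 46609 rows, and all 9 were among the 7103 genes that averaged at least 5 TPM (a unit that divides reads by transcript length and scales each cell to the same total) over the plates. The rule used names alone, and the genes are described as a readout of stress during tissue dissociation.

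All cells are labelled as from 70-day-old mice (P70) that carried Sox9-CreER, a tamoxifen-inducible recombinase driven in Sox9-expressing cells, and a floxed YFP reporter at R26 (R26-YFPfl/fl). The cKO group was NFIBfl/+;NFIXfl/fl and the dKO group was NFIBfl/fl;NFIXfl/fl, so floxed Nfix on both alleles was common to both. The series text calls the first group NFIB-cKO. All cells were sorted as negative for DAPI and positive for integrin α6 and YFP, and were split by Sca-1, the surface product of Ly6a, into a negative and a positive gate. Recombination of the floxed alleles was not checked here. No group without floxed Nfi alleles was analysed here.

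Of 384 cells, 378 had at least 1000 genes at 1 TPM or more and were kept. The Sca-1-negative cells lay on cKO plates 1, 2 and 3 (71, 47 and 65 cells) and dKO plates 1 and 2 (93 and 61 cells). The Sca-1-positive cells were 22 on cKO plate 3 and 19 on dKO plate 2, all in rows A and B of those plates, so gate and position on the plate cannot be told apart. The labels name no animal, so no plate could be tied to one. No test was made, and ratios are described by a size rule and by the overlap of plates. TPM keeps no read depth, and the median number of genes detected, which stands in for it, ran from 4770 to 5199 by plate and gate. The defining bulge marker Cd34 averaged 26.1 to 99.8 TPM by plate in Sca-1-negative cells, and 0.362 and 0.165 TPM in the Sca-1-positive cells of cKO plate 3 and dKO plate 2. The stem cell label therefore goes against this marker in the Sca-1-positive cells, which are called by their gate only. Ly6a averaged 19.7 to 47.6 TPM in Sca-1-negative cells and 68.4 and 124.6 TPM in those Sca-1-positive cells. The basal keratin Krt5 was found throughout, at 752 to 1474 TPM.

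All cells are labelled male, but the plates did not all match that label. Xist, the RNA of the inactive X chromosome, averaged 44.5 to 59.8 TPM on cKO plates 1 and 2 and dKO plate 1 and at most 0.102 TPM in Sca-1-negative cells of cKO plate 3 and dKO plate 2. The summed TPM of 4 Y-linked genes was 34.1 to 41.7 on those last plates and at most 0.978 on the others. Both kinds occurred in each genotype, so each genotype held cells of at least 2 animals. The first 3 are called Xist plates and the other 2 Y plates, and each comparison of genotypes is given over all plates and within each kind.

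Chaperones bind unfolded proteins and help them fold, and cells make more of them when proteins are damaged by heat, oxidation or handling. Heat shock factor 1 (HSF1) drives the cytosolic response through heat shock elements in promoters, and the unfolded protein response drives the chaperones of the endoplasmic reticulum. Hspa1a and Hspa1b encode the stress-inducible HSP70, Hspa8 the constitutive HSC70, Dnajb1 an HSP40 co-chaperone that stimulates HSP70, and Hsph1 the HSP110 nucleotide exchange factor. Hsp90aa1 and Hsp90ab1 encode the more inducible and the more constitutive cytosolic HSP90, Hspb1 the small heat shock protein HSP25, and Hspa5 the endoplasmic reticulum chaperone BiP. Fos encodes an AP-1 transcription factor and is an immediate early gene. Such genes are switched on within minutes of stimulation and are known to rise in tissue that is digested to single cells.

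The 9 genes spanned a wide range of levels, and because TPM is per length these levels can be set side by side. In Sca-1-negative cells the mean over the 5 plates was 218 TPM for Hsp90ab1, 191 TPM for Hspb1 and 184.2 TPM for Hspa8. Of the 7103 measured genes 2.01%, 2.41% and 2.56% were higher than these 3. Dnajb1 (63.1 TPM), Hsp90aa1 (59.3 TPM) and Hspa5 (41.2 TPM) formed a middle group. Hspa1b (13.5 TPM), Hsph1 (9.55 TPM) and Hspa1a (8.53 TPM), all known as stress-inducible, were the lowest of the 9. Plate means overlapped among the top 3, among the middle 3, and between Hsph1 and each HSP70 gene, but every plate mean of Hspa1b lay above every plate mean of Hspa1a.

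**Figure D1:**
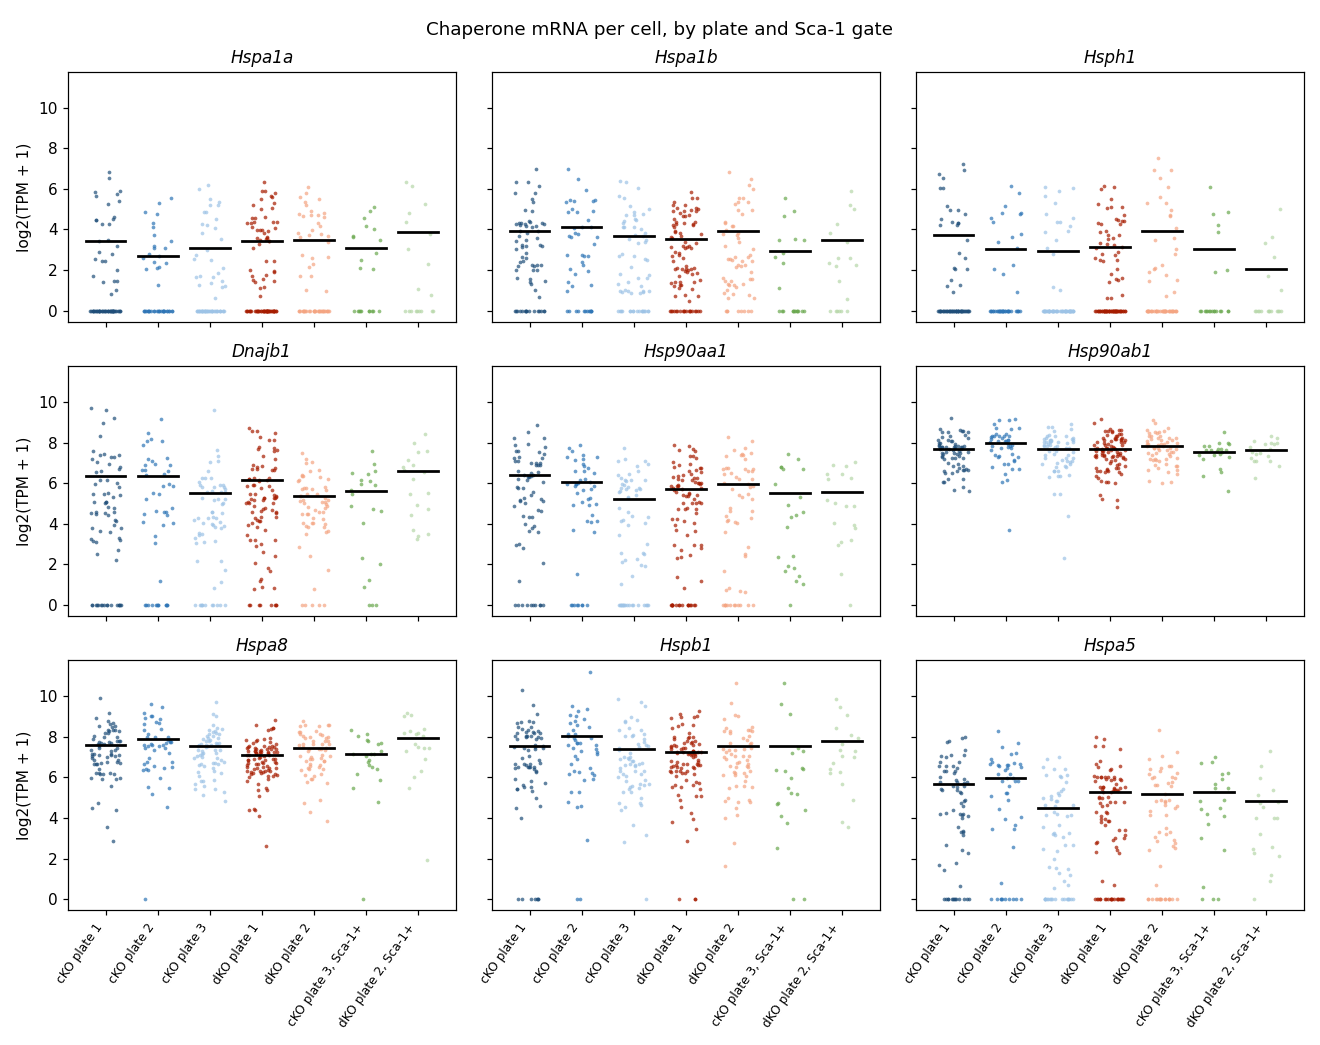
Each point is 1 cell, with its log2(TPM + 1) on the vertical axis, by plate and Sca-1 gate on the horizontal axis; black lines are the log2 of the mean TPM + 1 of that plate and gate. Hsp90ab1, Hspa8 and Hspb1 were found in nearly every cell, whereas Hspa1a was at 0 in 47.3% to 59.2% and Hsph1 in 53.8% to 73.8% of the Sca-1-negative cells of a plate.

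Hsp90ab1 was the steadiest member. Its plate means were 201, 252 and 208 TPM over the cKO plates, with 203 and 224 TPM over the dKO plates, a 1.25-fold span, and 98.5% to 100% of the Sca-1-negative cells of a plate had at least 10 TPM. Hspa8 averaged 193, 235 and 184.6 TPM across the cKO plates, with 134.4 and 174.3 TPM across the dKO plates, and 97.9% to 100% of cells had at least 10 TPM. Both dKO plates lay below all 3 cKO plates for Hspa8, without overlap, but the ratio (log2 -0.40) was short of the size rule. The share of all genes whose plates do not overlap, whatever their ratio, was not counted. Hspb1 averaged 187, 261 and 166.5 TPM over the cKO plates, with 153.3 and 187 TPM over the dKO plates, and its single cells ran from 0 to 2365 TPM. In Hspb1 the highest 5% of cells held 18.8% to 30.8% of the summed TPM of a plate.

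The inducible HSP70 genes were scarce. Hspa1a averaged 9.71, 5.42 and 7.46 TPM across the cKO plates, with 9.88 and 10.2 TPM across the dKO plates. In the same order its median cells were at 0, 0, 0, 1.26 and 0.94 TPM and its highest cells at 113.8, 45.2, 70.9, 79.3 and 67.3 TPM. At least 10 TPM marked 21.1%, 14.9% and 21.5% of the cells on the cKO plates (95% exact intervals 12.3–32.4%, 6.2–28.3% and 12.3–33.5%) and 33.3% and 34.4% on the dKO plates (23.9–43.9% and 22.7–47.7%). Both dKO plates were above all cKO plates for Hspa1a, but the intervals, which cover counting error only, overlap. Here too the share of all genes with plates in such an order was not counted. Hspa1b averaged 14.4, 16.6 and 11.7 TPM over the cKO plates, with 10.6 and 14.3 TPM over the dKO plates, and its plates overlapped.

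Hspa1a (chr17:34969190-34972156, minus strand, GRCm38) and Hspa1b (chr17:34956436-34959238, minus strand) lie next to each other as near copies. Of the 38-base words in the Hspa1a transcript, the length of the longer read, 61.8% also occur in Hspa1b, and 65.5% of those in Hspa1b occur in Hspa1a, so the split of their reads depends on the authors' model. Their sum is not affected by how shared reads are split between the 2. It averaged 24.1, 21.99 and 19.2 TPM across the cKO plates, with 20.4 and 24.5 TPM across the dKO plates, a log2 ratio of 0.04. The opposite differences of the 2 copies, 0.37 for Hspa1a and -0.18 for Hspa1b, thus came to almost no difference in the sum.

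RefSeq promoter windows were found for 6 of the 9 members, not for Hsp90aa1, Hsp90ab1 and Hspa8. The promoters of the 2 copies are shown because they are almost the same sequence in front of genes whose separate rows were only weakly related from cell to cell. They are the 250 bases before the RefSeq start (GRCm38.p6, minus strand, at chr17:34972157-34972406 for Hspa1a and chr17:34959239-34959488 for Hspa1b), read 5′ to 3′. Capitals mark a 2-block heat shock element with the letters GAANNTTC.
Hspa1a: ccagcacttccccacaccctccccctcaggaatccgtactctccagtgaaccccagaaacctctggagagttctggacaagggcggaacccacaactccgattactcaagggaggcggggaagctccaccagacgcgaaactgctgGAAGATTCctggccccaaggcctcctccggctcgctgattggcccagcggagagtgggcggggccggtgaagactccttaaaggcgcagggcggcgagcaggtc
Hspa1b: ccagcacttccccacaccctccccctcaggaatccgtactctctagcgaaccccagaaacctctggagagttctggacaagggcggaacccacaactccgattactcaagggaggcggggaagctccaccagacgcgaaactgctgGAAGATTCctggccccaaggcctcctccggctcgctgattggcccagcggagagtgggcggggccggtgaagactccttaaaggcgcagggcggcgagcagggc
Of 250 bases 247 were identical (98.8%), and the differences, with the Hspa1a base first and positions counted from 1 at the 5′ end, were C44T, T47C and T249G. The element GAAGATTC ended 97 bases before the start in both, and 6.69% of 32851 promoter windows of the same length hold GAANNTTC. At 10 TPM or more, 42 of 337 Sca-1-negative cells had both copies, 46 had Hspa1a alone, 85 had Hspa1b alone and the rest had neither. The correlation of the copies across cells averaged 0.17 over the plates and ran from -0.08 to 0.30. These counts and correlations use the separate rows, at low levels with many cells at 0. The part of the split of shared reads and of these zeros in the weak relation was not tested.

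Hsph1 (chr5:149614287-149636376, minus strand) was as scarce as the inducible HSP70 genes. It averaged 12.2, 7.10 and 6.70 TPM across the cKO plates, with 7.66 and 14.1 TPM across the dKO plates, and the plates overlapped. Its median was 0 TPM on every plate, and the highest 4 of 61 cells of dKO plate 2 held 60.05% of its summed TPM there, so its plate means rest on few cells. Its promoter window, before 1 of its 2 RefSeq starts, held the other 2-block arrangement of the element, TTCTCGAA, from 33 to 26 bases before the start, and 7.17% of windows hold the letters TTCNNGAA.

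Dnajb1 (chr8:83608193-83612653, plus strand) combined a middle level with the highest single cell of the middle 3. Its plate means were 81.8, 79.7 and 44.6 TPM over the cKO plates, with 69.4 and 40.2 TPM over the dKO plates. Its median cells, at 22.7, 26.4 and 18.4 TPM over the cKO plates, with 34.98 and 30.6 TPM over the dKO plates, had another order. The highest cells reached 822, 578 and 769 TPM over the cKO plates, with 426 and 176.2 TPM over the dKO plates, and 22.5%, 25.5% and 16.9% of cKO cells against 8.60% and 8.20% of dKO cells were at 0. The genotype difference of Dnajb1 therefore turned with the scale, from -0.32 as a log2 ratio of mean TPM to 0.45 as a difference of mean log2(TPM + 1). Only 0.444% of its 38-base words occur in other genes, so few of its reads can be shared.

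The Dnajb1 promoter is shown because this gene followed Fos most closely, and the window was searched for the elements of both responses. It is the 250 bases before 1 of its 2 RefSeq starts (GRCm38.p6, chr8:83607925-83608174, plus strand), 5′ to 3′, with no letters in capitals because no searched element was found in it.
Dnajb1: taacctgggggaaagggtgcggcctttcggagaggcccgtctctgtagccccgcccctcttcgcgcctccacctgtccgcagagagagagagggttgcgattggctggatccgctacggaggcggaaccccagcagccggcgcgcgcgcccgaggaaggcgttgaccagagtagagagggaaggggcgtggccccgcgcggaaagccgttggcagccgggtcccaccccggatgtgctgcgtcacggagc
The letters searched on both strands were GAANNTTC and TTCNNGAA, the AP-1 site TGANTCA (in 6.75% of windows), the cyclic AMP response element TGACGTCA (1.55%) and, by name, the 3-block heat shock element (0.466%), the endoplasmic reticulum stress element (0.113%) and the serum response element core (1.47%). No match means only that these letters are absent from this window.

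Hsp90aa1 (chr12:110690605-110702728, minus strand) averaged 83.9, 64.5 and 35.8 TPM across the cKO plates, with 50.8 and 61.5 TPM across the dKO plates. Its median cells, in the same order, were at 54.02, 52.04, 16.5, 36.5 and 35.8 TPM. The dKO plates fell inside the range of the cKO plates. Of its words 49.8% are shared with other genes, mainly the pseudogene Gm12346, which was listed at 0.543 to 1.44 TPM and held 1.31% of the summed TPM. Hspa8 (chr9:40800984-40810087, plus strand) shared 42.6% of its words and Hspb1 (chr5:135887919-135889563, plus strand) 53.4%, mainly with the pseudogenes Gm15459 and Hsp25-ps1, which held 1.44% and 1.76% of the sums. Hsp25-ps1 was listed at 1.83 to 5.23 TPM. Gm15459 lay almost wholly on dKO plate 1, at 12.3 TPM or 8.38% of the sum with Hspa8 there, against at most 1.14 TPM on the other plates. Adding the copies back gave log2 ratios of dKO over cKO of -0.11 for Hsp90aa1, -0.35 for Hspa8 and -0.28 for Hspb1, beside -0.13, -0.40 and -0.27 for the single rows. For Hsp90ab1 (chr17:45567775-45573271, minus strand) 7.35% of the words were shared. The window of Hspb1 held 2 heat shock elements, GAAGTTTC and GAACCTTC.

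Hspa5 (chr2:34771970-34777547, plus strand) shares no word with another gene. It averaged 50.1, 60.99 and 21.2 TPM across the cKO plates, with 38.0 and 35.8 TPM across the dKO plates, so both dKO plates fell within the cKO range. In the same order its median cells were at 27.2, 54.9, 7.80, 25.99 and 16.7 TPM. Its promoter window held an endoplasmic reticulum stress element, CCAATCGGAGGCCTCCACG, from 65 to 47 bases before the start, which 0.113% of windows do, and an AP-1 site, TGAGTCA. It was the only one of the 6 members with a window to hold either.

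The first comparison asks whether chaperone levels differ in Sca-1-negative cells when the second Nfib allele is floxed as well. By a size rule of at least 1.5-fold with no overlap of plates in mean TPM or in mean log2(TPM + 1), 0 of 9 members differed. Of all measured genes 1.76% passed the rule as higher in dKO and 3.96% as lower, so 0 of 9 is near that background. The log2 ratios, dKO over cKO, were 0.37 for Hspa1a, 0.30 for Hsph1, -0.05 for Hsp90ab1, -0.13 for Hsp90aa1, -0.18 for Hspa1b, -0.25 for Hspa5, -0.27 for Hspb1, -0.32 for Dnajb1 and -0.40 for Hspa8. Their median was -0.18, beside -0.12 for all measured genes. The difference of -0.06 is smaller than the SD of 0.20 that this value had over the 6 pairs of 1 cKO and 1 dKO plate. Single plates moved the count to 1 member. Hsph1 was higher in dKO by the rule without cKO plate 1, beside 3.32% of all genes, and without dKO plate 1, beside 6.46%. Hspa8 was lower by the rule without dKO plate 2 (-0.60), beside 10.3% of genes, and with its pseudogene copy added back it stood at -0.48 and did not pass.

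Scaling moved these values slightly. With median-of-ratios size factors the median of all genes went from -0.12 to -0.01, and with the spike-in RNAs and the 5 most abundant rows removed it went to -0.003. The shares of genes past the rule then became 2.80% higher and 2.57% lower, and 4.74% and 3.15%. Hsp90ab1 turned to 0.07 and 0.08 under these scalings and Hsp90aa1 to 0.02 under the second, and the other 7 members kept their sign. The count of members past the rule was 0 under both.

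Within the kinds of plates the members did not move alike. On the Xist plates Hsp90aa1 stood at -0.54, Hspa5 at -0.53, Hspb1 at -0.54 and Hspa1b at -0.51, with dKO plate 1 below both cKO plates. On the Y plates the same genes stood at 0.77, 0.73, 0.17 and 0.26, with dKO plate 2 above cKO plate 3. The sum of Hspa1a and Hspa1b averaged 20.4 TPM on dKO plate 1, against 24.1 and 21.99 TPM on cKO plates 1 and 2. It averaged 24.5 TPM on dKO plate 2 against 19.2 TPM on cKO plate 3. The median of all measured genes also turned, from -0.24 on the Xist plates to 0.04 on the Y plates. By 1.5-fold without overlap Hspa8 was the only member past the rule on the Xist plates (-0.67), where 14.9% of all genes were lower and 2.72% higher. With Gm15459 added back it stood at -0.54 there, short of the rule, and the count was 0. On the Y plates, with 1 plate a side, Hsp90aa1, Hspa5 and Hsph1 (0.97) were past it, where 13.2% of all genes were higher and 10.2% lower. On the Xist plates Hsph1 stood at -0.30 and Hsp90ab1 at -0.16 (0.11 on the Y plates), with dKO plate 1 between the cKO plates for both. Hspa1a was the only member above 0 on both kinds (0.34 and 0.41), and Dnajb1 (-0.22 and -0.15) and Hspa8 (-0.67 and -0.08) were below 0 on both. On dKO plate 1 the ribosomal RNA row Rn18s-rs5 took 61.5% of TPM, against 56.3% and 56.8% on the cKO Xist plates, and its part in the lower values there was not tested.

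**Figure D2:**
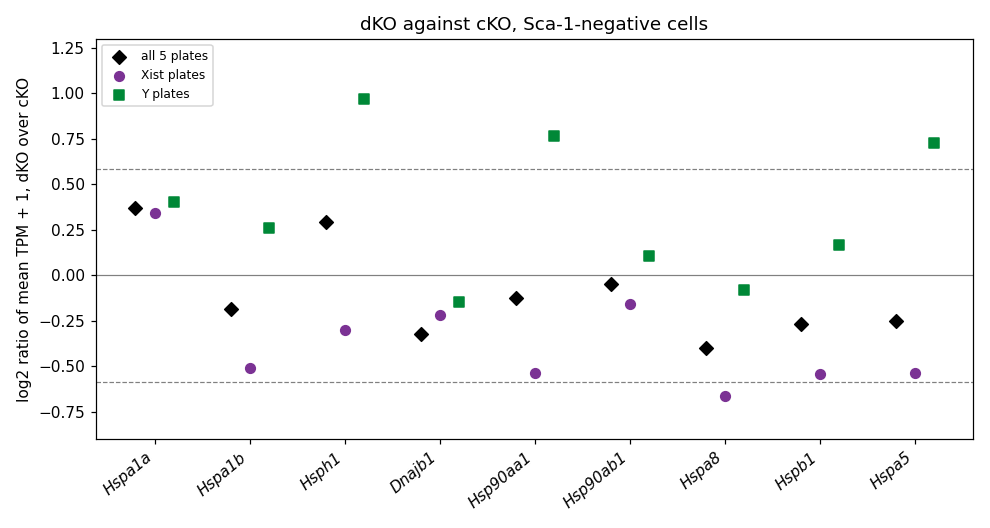
The vertical axis is the log2 ratio of mean TPM + 1, dKO over cKO, in Sca-1-negative cells for each of the 9 genes, over all 5 plates, on the Xist plates (dKO plate 1 over cKO plates 1 and 2) and on the Y plates (dKO plate 2 over cKO plate 3); dashed lines mark 1.5-fold. Hsp90aa1 goes from -0.54 to 0.77 and Hspa5 from -0.53 to 0.73 between the kinds.

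The chaperone and stress lists around the 9 members were counted by the genotype rule too. Of all measured genes 1.76% passed it as higher in dKO and 3.96% as lower. Of 28 HSF1 targets and co-chaperones 22 were measured and 0 passed, with a median of -0.13. Of the mitochondrial chaperones and the chaperonin complex 13 of 14 were measured and 0 passed. Of 25 endoplasmic reticulum stress genes 18 were measured and 2 were lower in dKO. They were Ddit3, which encodes the stress transcription factor CHOP (6.96 TPM in cKO against 3.48 TPM in dKO), and Dnajb9, which encodes a co-chaperone of BiP (7.06 against 3.91 TPM). Of the 7 measured genes of oxidative and metal stress 0 passed. The immediate early genes stood lower as a list, with a median log2 ratio of -0.77 over 23 measured genes beside -0.12 for all genes, and 2 of them passed as lower in dKO. These were the zinc finger transcription factors Klf6 (26.97 TPM in cKO against 14.9 TPM in dKO) and Klf4 (49.5 against 30.6 TPM). The Y plates weigh more in the dKO mean than in the cKO mean. The part of the kind of plate in these list values was not tested.

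The second comparison set the plates of 1 genotype against each other: cKO plate 3 against cKO plates 1 and 2, and dKO plate 2 against dKO plate 1. Dnajb1 was the only member at least 1.5-fold apart in the same direction in both genotypes. It was lower on the Y plate, at 44.6 against 81.8 and 79.7 TPM in cKO (log2 -0.84) and at 40.2 against 69.4 TPM in dKO (-0.77). Of all measured genes 2.82% were lower on the Y plates by this rule and 1.87% higher, and the count of members was 1 and 0. On the scale of mean log2(TPM + 1) the differences of Dnajb1 were -0.35 and -0.16, short of 1.5-fold, and without the highest 5% of cells the log2 ratios of the means were -0.93 and -0.65.

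The other members did not repeat between genotypes. Hspa5 was 2.54-fold lower on cKO plate 3 than on cKO plates 1 and 2 (log2 -1.35) but at -0.09 between the dKO plates. Hsp90aa1 was 2.04-fold lower on cKO plate 3 (-1.03) but stood at 0.27 between the dKO plates. Hspa8 gave -0.21 and 0.37, Hspb1 -0.43 and 0.28, Hspa1b -0.37 and 0.40, Hsph1 -0.47 and 0.80, Hsp90ab1 -0.12 and 0.14, and Hspa1a -0.02 and 0.04. The median member stood at -0.43 in cKO and 0.27 in dKO, beside -0.11 and 0.17 for all measured genes.

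Fos itself was lower on the Y plates, at 277 against 550 and 703 TPM in cKO and at 151.2 against 475 TPM in dKO. Of 23 measured immediate early genes 18 were lower on the Y plates, among them Nr4a1, an orphan nuclear receptor (log2 -2.05 and -2.43), Btg2, an antiproliferative factor (-1.83 and -2.27), and Ier2 (-1.77 and -2.11). Outside that list the HSP40 gene Dnaja1 was the only one of the 22 HSF1 targets and co-chaperones that was lower (37.5, 43.4 and 20.004 TPM across the cKO plates, with 28.2 and 18.1 TPM across the dKO plates). Ppp1r15a, which encodes the GADD34 phosphatase subunit, was the only one of the 18 endoplasmic reticulum genes (34.9, 38.8, 10.5, 18.5 and 4.59 TPM). The upper follicle markers Cst6, Defb6 and Krt79, 3 of 8 measured, were higher on the Y plates. The summed TPM of that whole list was 936 and 1126 on the Y plates against 587 to 996 on the Xist plates. Its member Krt17 averaged 427, 441 and 460 TPM across the cKO plates, with 836 and 792 TPM across the dKO plates. The sum therefore also carries a difference between genotypes. The part of upper follicle cells in the difference of Dnajb1 was not tested. In Sca-1-negative cells the summed TPM of the fibroblast list was 2.69 to 11.8 on the Xist plates against 4.34 and 23.8 on the Y plates, and that of the immune list 8.61 to 27.8 against 10.6 and 7.76. A mean of 5 TPM was reached by 1 of 6 fibroblast and 1 of 8 immune markers, and by no melanocyte, endothelial or erythroid marker.

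**Figure D3:**
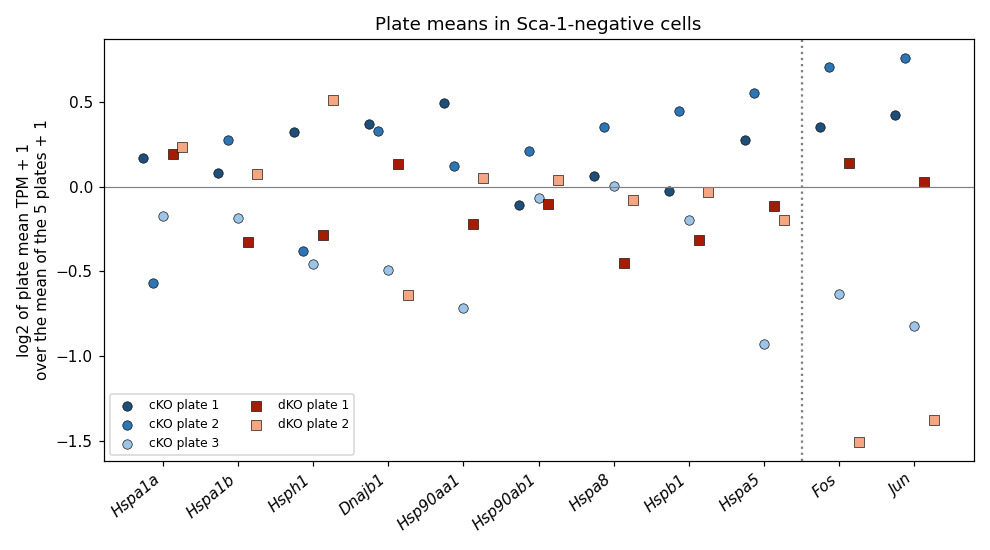
The vertical axis is the log2 of each plate mean TPM + 1 over the mean of the 5 plate means + 1, for the 9 genes and, right of the dotted line, for Fos and Jun, in Sca-1-negative cells; circles are cKO plates and squares dKO plates. The Y plates (light symbols) lie below the Xist plates for Dnajb1, Fos and Jun alike; Hspa5 shares that order narrowly, at 35.8 TPM on dKO plate 2 against 38.0 TPM on dKO plate 1.

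The third comparison set Sca-1-positive against Sca-1-negative cells on the 2 plates that held both, which are the Y plates. By a rule of 1.5-fold in mean TPM together with 0.5 in mean log2(TPM + 1), met on both plates, 0 of 9 members differed. Of all measured genes 2.25% were higher and 11.1% lower in Sca-1-positive cells by this rule, and 5.90% and 6.50% with size factors. Fos averaged 554 TPM against 277 TPM on cKO plate 3 and 949 TPM against 151.2 TPM on dKO plate 2, and 10 of 23 immediate early genes were higher in Sca-1-positive cells on both plates and 1 was lower.

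On single plates some members were past the rule, but the share of all genes past it on a single plate was not counted. The median log2 ratio of all measured genes was -0.24 on cKO plate 3 and -0.39 on dKO plate 2. Dnajb1 averaged 95.2 TPM in the 19 Sca-1-positive cells of dKO plate 2, with cells from 8.59 to 342 TPM and a median of 73.7 TPM, against 40.2 TPM and a median of 30.6 TPM in the 61 Sca-1-negative cells (2.34-fold). On cKO plate 3 it averaged 47.2 against 44.6 TPM (1.06-fold), with medians of 36.2 and 18.4 TPM. Hspa5 was 1.76-fold higher in the Sca-1-positive cells of cKO plate 3 (38.2 against 21.2 TPM), and it averaged 27.9 against 35.8 TPM on dKO plate 2. Hspa1b was 1.65-fold lower on cKO plate 3 (6.71 against 11.7 TPM) and at 9.98 against 14.3 TPM on dKO plate 2. The sum of Hspa1a and Hspa1b, which does not depend on the split of their reads, stayed within 1.5-fold on both plates. It averaged 14.3 against 19.2 TPM on cKO plate 3 and 23.6 against 24.5 TPM on dKO plate 2. Hsph1 was 3.62-fold lower on dKO plate 2 (3.16 against 14.1 TPM) and at 7.21 against 6.70 TPM on cKO plate 3. On dKO plate 2 its median was 0 TPM in both gates, and 4 of the 61 Sca-1-negative cells held 60.05% of their summed TPM. There 2 of 19 Sca-1-positive and 14 of 61 Sca-1-negative cells had at least 10 TPM.

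The remaining 5 members stayed within 1.5-fold on both plates. Hspa8 averaged 141.9 against 184.6 TPM on cKO plate 3 and 243 against 174.3 TPM on dKO plate 2. Hspb1 averaged 183.5 against 166.5 TPM and 224 against 187 TPM. On cKO plate 3 its mean log2(TPM + 1) was lower in Sca-1-positive cells, at a difference of -0.98, and the highest 2 of 22 cells held 59.4% of its summed TPM there. Hsp90ab1 averaged 185.2 against 208 TPM and 196 against 224 TPM, Hsp90aa1 43.96 against 35.8 TPM and 46.1 against 61.5 TPM, and Hspa1a 7.61 against 7.46 TPM and 13.6 against 10.2 TPM. Of the 22 HSF1 targets and co-chaperones 0 were higher and 1 was lower in Sca-1-positive cells on both plates, Hspa4l, an HSP110 relative (6.325 against 12.6 TPM and 6.28 against 26.1 TPM). Of 18 endoplasmic reticulum stress genes 1 was higher and 0 were lower, Herpud1, a gene of endoplasmic reticulum protein disposal (22.8 against 14.6 TPM and 22.7 against 6.225 TPM). Of 7 genes of oxidative and metal stress 2 were higher and 2 lower. The metallothionein genes Mt1 (195 against 50.7 TPM and 278 against 37.4 TPM) and Mt2 were higher, and Gclm, a subunit of the enzyme that starts glutathione synthesis (7.07 against 26.1 TPM and 4.945 against 16.9 TPM), and the thioredoxin gene Txn1 (18.8 against 33.6 TPM and 20.9 against 42.5 TPM) were lower. Of 11 measured bulge markers 9 were lower in Sca-1-positive cells on both plates. The summed TPM of the whole bulge list was 461 and 450.3 there against 816 and 781 in Sca-1-negative cells. Krt15 alone took 436 and 421 TPM of these sums in Sca-1-positive cells, against 440 and 284 TPM in Sca-1-negative cells. The row Rn18s-rs5 took 60.4% and 60.9% of TPM in Sca-1-positive cells against 55.3% and 56.03% in Sca-1-negative cells. The part of both in the values above was not tested.

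The fourth comparison asked which members follow Fos from cell to cell. Pearson's r of log2(TPM + 1) was taken within each plate over its Sca-1-negative cells, which share handling, plate and amplification, and averaged over the 5 plates. Dnajb1 had the highest mean, 0.35, with 0.45, 0.37 and 0.37 for cKO plates 1 to 3 and 0.49 and 0.05 for dKO plates 1 and 2. Hspa8 followed at 0.25 (0.33, 0.40, 0.21, 0.23 and 0.09). By a mean of at least 0.2 with r above 0 on every plate, 2 of 9 members passed, beside 4.02% of 6998 genes. Of those genes 0.786% had a higher mean than Dnajb1 and 2.26% a higher mean than Hspa8. Without dKO plate 2 the count was 4, with Hsp90ab1 (0.22) and Hspa5 (0.21) added, beside 5.18% of genes. Among genes with a mean of at least 20 TPM, over all plates, 2 of 6 members passed, beside 8.20% of genes.

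The other 7 members did not pass. Hsp90ab1, at or above 10 TPM in nearly every cell, came nearest, with a mean r of 0.19 and r above 0 on every plate (0.16, 0.29 and 0.32 for cKO plates 1 to 3 and 0.10 and 0.07 for dKO plates 1 and 2). Of all genes 5.12% had a higher mean, and Hsp90ab1 passed in 4 of 18 alternatives. Hsp90aa1 stood at 0.16 and passed in 2. Hspa5 averaged 0.15, and Hspa1a and Hsph1, which were at 0 in many cells, both 0.12. The mean was -0.08 for Hspb1 and -0.09 for Hspa1b. The sum of the inducible HSP70 genes gave -0.04, from -0.17 to 0.13 by plate. The median member stood at 0.15, beside 0.02 for all genes, and the immediate early gene list at 0.57, with 19 of 22 past the rule. Jun, the partner of Fos in AP-1, averaged 0.78.

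**Figure D4:**
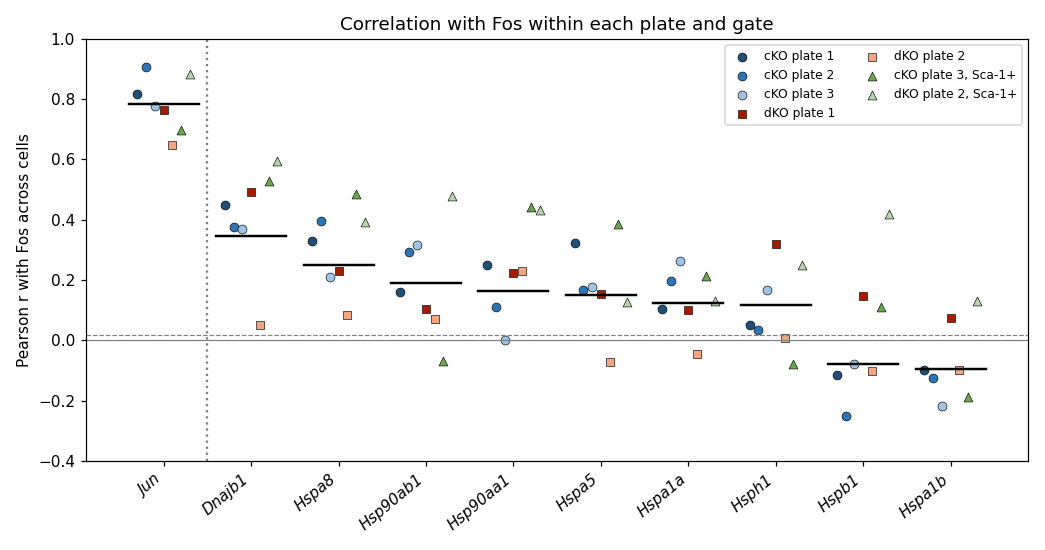
The vertical axis is Pearson's r with Fos across the cells of 1 plate and gate, for Jun and for the 9 genes in order of their mean over the 5 plates of Sca-1-negative cells (black lines); circles are cKO plates, squares dKO plates and triangles Sca-1-positive cells, and the dashed line is the median of all genes. Dnajb1 reaches 0.37 to 0.59 everywhere except in the Sca-1-negative cells of dKO plate 2, at 0.05.

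In the 2 small Sca-1-positive groups Dnajb1 again had an r of 0.53 (22 cells) and 0.59 (19 cells) with Fos, and Hspa8 of 0.49 and 0.39. Hsp90aa1 gave 0.44 and 0.43, and Hsp90ab1 -0.07 and 0.48. The Sca-1-negative cells of dKO plate 2, where Dnajb1 gave 0.05, had the lowest Fos of all, with a median cell at 11.6 TPM. There the immediate early gene list also had its lowest median r, 0.32, against 0.59 to 0.73 on the other plates. The share of these cells with Fos at 0, 39.3%, did not set the plate apart. It was below that in the Sca-1-negative cells of cKO plate 3, where Dnajb1 gave 0.37. The part of the low Fos level in the r of Dnajb1 was not tested. On the Xist plates alone Dnajb1 averaged 0.44 and Hspa8 0.32, and on the Y plates alone 0.21 and 0.15.

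**Figure D5:**
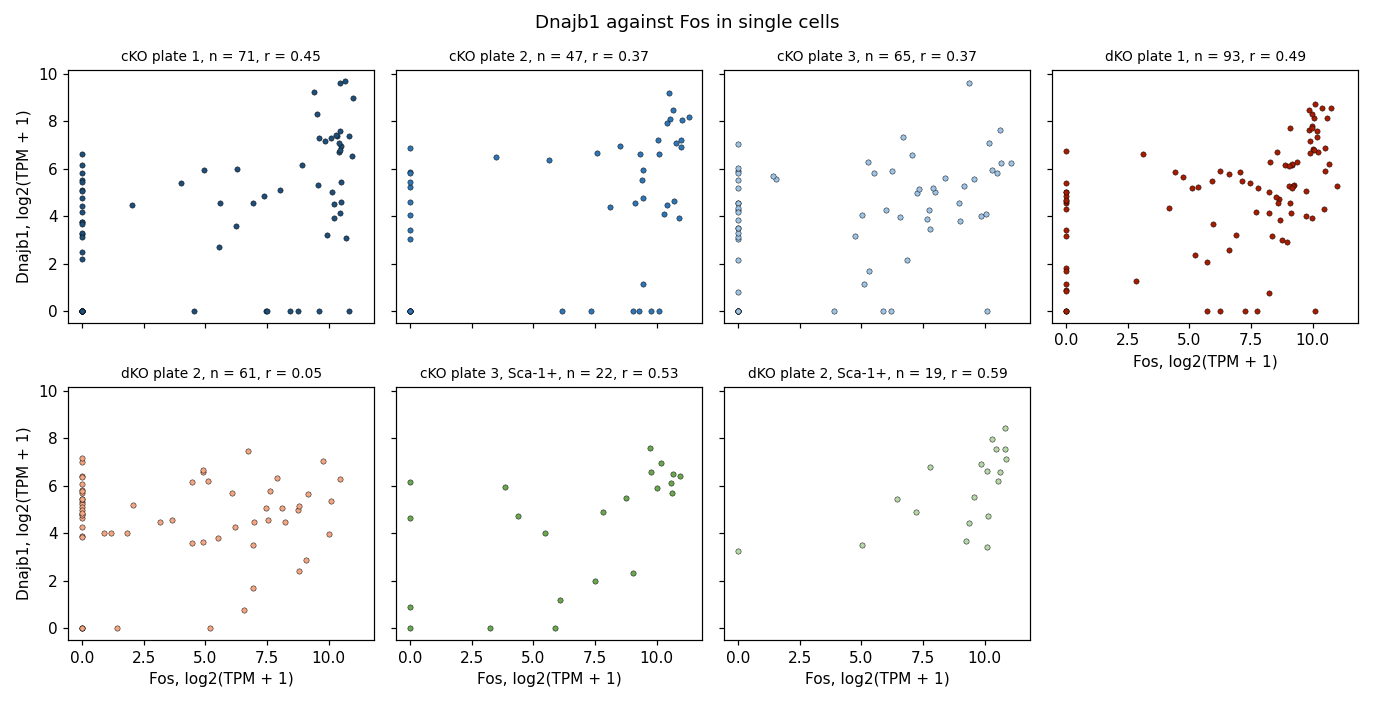
Each point is 1 cell, with Fos on the horizontal axis and Dnajb1 on the vertical axis, both as log2(TPM + 1), in 1 panel per plate and gate with its number of cells and r. The points slope upward in every panel but that of the Sca-1-negative cells of dKO plate 2, where r is 0.05.

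The correlation of Dnajb1 with Fos was close to its main value under other treatments of the cells. Among cells with Fos above 0 it averaged 0.32, after the number of genes detected was regressed out 0.33, and after the spike-in RNAs and the 5 most abundant rows were removed 0.32. By ranks (Spearman) its mean was 0.39, but it was not above 0 on every plate. The share of the ribosomal RNA row Rn18s-rs5 in a cell correlated with Fos at 0.48 and with Dnajb1 at 0.23, and the share of spike-in RNA at -0.40 and -0.21. The part of these measures in the correlation beyond the rescaling was not tested.

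The members were only weakly related to each other across cells. The same correlation for pairs of other genes was not computed. Over the 36 pairs of members the median r was 0.08, the highest was 0.24 for Hsp90ab1 with Hspa8, the next was 0.21 for Dnajb1 with Hspa8, and the lowest was -0.13 for Hspa5 with Hspb1. Dnajb1 with Hspa1a gave 0.002 and with Hspa1b -0.06. Hspa5 was most tied to the number of genes detected in a cell, at 0.35.

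The genes most like the mean of the members were mainly immediate early genes, although the members were only weakly related to each other. With the mean log2(TPM + 1) of the 9 members, over 5 plates, the 5 highest of 6224 genes were Fosb (0.39), Ppp1r15a (0.38), Junb (0.38), Nr4a1 (0.38) and Atf3 (0.36). By plate they ran, in that order, from 0.18 to 0.55, 0.26 to 0.53, 0.09 to 0.57, 0.11 to 0.51 and -0.008 to 0.62. The part of Dnajb1 in this mean was not tested. With Dnajb1 alone, a list added after its values were seen, they were Atf3 (0.43), Egr1 (0.41), Fosb (0.41), Junb (0.40) and Jun (0.39). With Fos they were Fosb (0.86), Zfp36 (0.81), Junb (0.80), Atf3 (0.79) and Egr1 (0.79). With the sum of Hspa1a and Hspa1b they were Susd2 (0.23), Tfip11 (0.22), Akt1 (0.21), Endod1 (0.21) and Itpkb (0.21), with no immediate early gene among them. How high the top 5 of 6224 unrelated genes would reach was not computed, so these low values name no relation.

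The wider chaperone genes were set against Fos by the same rule, which 4.02% of 6998 genes passed. Of the 22 HSF1 targets and co-chaperones only Dnaja1 passed, with a mean r of 0.32 (0.38, 0.38 and 0.36 across the cKO plates, with 0.35 and 0.12 across the dKO plates), and the list median was 0.04. Of 13 mitochondrial chaperones and chaperonin subunits 0 passed (median 0.08), and of 18 endoplasmic reticulum genes 1 did, Ppp1r15a (0.54). Of 7 genes of oxidative and metal stress Mt1 passed (0.22).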

How the data were processed

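Single cells were amplified with Smart-seq2, tagmented with Nextera XT and sequenced in paired-end mode, per the labels' protocols. The deposited table gives TPM per gene and cell. Bowtie2 2.2.9 and RSEM 1.2.30 were used by the authors with mm10 (GRCm38), per the submitters' processing notes. Which annotation they took is not given in these sources. Smart-seq2 carries neither molecular identifiers nor strand, so amplification copies count, antisense reads are not told apart, and intervals cover counting error only. RSEM splits reads between near copies by a model. The row Rn18s-rs5 took 55.3% to 61.5% of TPM by plate, so other genes read lower where it is higher.

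Python 3.11.15, numpy 2.4.6, pandas 2.3.3 and scipy 1.17.1 were used. Cells with at least 1000 genes at 1 TPM were kept. Doublets were not called because each well received a single sorted cell, and no column equalled another. Plate means were averaged with equal weight per genotype, and 1 TPM was added before ratios, which makes low genes look more alike than they are. A positive cell had 10 TPM. Rules for size and correlation are given beside the results, and the code was tested on simulated data. The 9 members, the lists and the rules were chosen with earlier results of these data known. Named were all members and Fos, up to 3 genes per list past the genotype or plate rule (otherwise the 2 highest), and the 5 genes most like the members, the HSP70 sum and Fos. Other genes were named after their values were seen. Positions came from GENCODE M21 (GRCm38) and promoters from RefSeq (GRCm38.p6). Alternatives changed the pseudocount, filters, scaling, statistic, thresholds and plates. The Fos correlation on the Xist plates, on the Y plates and in cells with Fos above 0, and the pseudogene copies added back, were added after seeing the data.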

Additional observations from a re-analysis of the deposited data

Results flagged for a closer look

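For 4 genes the genotype difference pointed one way on the Xist plates, where dKO plate 1 lay below both cKO plates, and the other way on the Y plates, where dKO plate 2 lay above cKO plate 3. As log2 ratios of dKO over cKO these were -0.51 and 0.26 for Hspa1b, -0.54 and 0.77 for Hsp90aa1, -0.53 and 0.73 for Hspa5, and -0.54 and 0.17 for Hspb1. The value of Hspa1b depends on the split of its reads with Hspa1a. Their sum averaged 20.4 TPM on dKO plate 1 against 24.1 and 21.99 TPM on cKO plates 1 and 2. On the Y plates it averaged 24.5 TPM in dKO against 19.2 TPM in cKO. Hsph1 also changed sign, from -0.30 to 0.97, and Hsp90ab1 from -0.16 to 0.11, but for both dKO plate 1 lay between the cKO plates. The median of all measured genes went from -0.24 on the Xist plates to 0.04 on the Y plates. The share of all genes that turn in this way was not counted. The difference between the kinds of plates was not tested, since the labels tie no plate to an animal and each kind holds 1 dKO plate.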

How the results depend on the processing

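No paired analysis was possible because the replicate numbers only name cells, the labels name no animal, and no test was made. The count of members past the genotype rule, 0, was 1 without the highest 5% of cells. That was Hspa1a, of 8 members measured there, beside 2.87% of all genes higher and 3.62% lower. The count was 1 on the Xist plates, 3 on the Y plates and 0 to 1 with a plate left out. It stayed 0 under 10 other alternatives. With pseudogene copies added back it was 0 over all plates and on the Xist plates, 3 on the Y plates and 0 to 1 with a plate left out. The median of the members relative to all genes, -0.06, was -0.27 within the Xist plates and 0.22 within the Y plates. It ran from -0.2551 to 0.0416 with a plate left out, turning to 0.02 without cKO plate 2, 0.0416 without dKO plate 1 and 0.0076 without dKO plate 2. The plate count, 1, was 0 with mean log2 values and 0 with a ratio of 2. The gate count was 0 under all 11 alternatives. The Fos count, 2, was 1 by Spearman (beside 3.47% of genes), 1 at an r of at least 0.3 (1.315%) and 1 on the Y plates (6.998%). It was 3 on the Xist plates with Hspa5 (5.71%) and 3 with no filter on cells with Hsp90ab1 (3.81%). It was 4 with the immediate early gene list in place of Fos (5.37%), and 2 to 4 with a plate left out (3.95% to 5.26%). Dnajb1 kept a mean r of 0.21 to 0.44 over 18 alternatives and passed in 17, and Hspa8 0.15 to 0.32, passing in 16. The cause of these changes was not tested.

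Limits: no plate is tied to an animal, so no error between animals is given, plates differ in sex-linked RNA, gates are tied to plate rows, and TPM keeps no depth. Hspa1a and Hspa1b are best read as their sum.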
